A study of Homo sapiens with 42 samples.

Results

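CSF1, CSF2 and CSF3 encode the colony-stimulating factors M-CSF, GM-CSF and G-CSF. These 3 genes were chosen by name and were all found among the 28266 gene symbols of the count table. CSF1 (ENSG00000184371) lies on the plus strand of chromosome 1 at chr1:110452864-110473614 in GRCh37. CSF2 (ENSG00000164400) lies at chr5:131409482-131411863, and CSF3 (ENSG00000108342) at chr17:38171614-38174066, both also on the plus strand. No annotated gene overlapped any of them.

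Colony-stimulating factors are secreted cytokines that drive blood progenitors to divide and mature. CSF1 acts through CSF1R on the monocyte and macrophage lineage, CSF2 through a receptor of CSF2RA and CSF2RB on granulocytes and macrophages, and CSF3 through CSF3R on neutrophils. Fibroblasts are known to make CSF1 at rest and to start CSF2 and CSF3 on inflammatory signals, and CSF2 and CSF3 belong to the senescence-associated secretory phenotype, the set of factors that senescent cells release.

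The study sequenced RNA from human lung fibroblasts, as 42 libraries that form 12 groups, to ask how depletion of the COPI coat subunit COPB2 changes normal and senescent cells. IMR90 ER:RAS cells carry a tamoxifen-responsive RAS fusion and were given 100 nM 4-hydroxytamoxifen (4OHT), which activates it and causes oncogene-induced senescence (OIS), or DMSO (n = 3 libraries per group). IMR90 cells without the fusion were given bleomycin, a DNA-damaging drug, at 50 µg/ml for 24 h, or DMSO (n = 4 per group). After 7 days all groups received doxycycline at 1 µg/ml for 72 h to express a control shRNA, COPB2 shRNA 1 or COPB2 shRNA 2, and RNA was taken on day 10. The senescence inducer and the cell line therefore change together and cannot be told apart. The labels do not name separate cultures, while the study describes its replicates as independent experiments, and p-values measure the spread between these libraries.

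Library totals ran from 13148194 to 23597310 counts. COPB2 itself, the targeted gene, stood between 237 and 573 counts per 1000000 counts (CPM) in the control shRNA libraries and between 30.3 and 126 CPM with either COPB2 shRNA, with no overlap. Summed over 8 fibroblast markers, the libraries held 8569 to 29460 CPM. Summed over 8 blood cell markers they held 0.228 to 3.88 CPM. Replicate 4 of the bleomycin-treated cells stood apart from the other replicates for CSF3 with all 3 shRNAs, and results that rest on it are given with and without it.

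The silencing reagents are shown because a guide can also pair with other transcripts through its seed (bases 2 to 8, in capitals). Both 22-base guides matched the coding sequence of COPB2 on the minus strand of chromosome 3, shRNA 1 in exon 11 of 22 (chr3:139088345-139088366, GRCh37) and shRNA 2 in exon 4 (chr3:139097987-139098008).
COPB2 shRNA 1: tTAAATATctttacaatgctgt
COPB2 shRNA 2: tAATTGAAcactctaatctgca
The site complementary to the seed of shRNA 1, atattta, occurred 4 times in the canonical CSF2 transcript, 3 times in that of CSF3 and 1 time in that of CSF1, and 30.1% of all canonical transcripts held it at least 1 time. The seed site of shRNA 2, ttcaatt, occurred in none of the 3 transcripts and in 18% of all.

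Sequence features known to govern these mRNAs differed between the genes. ATTTA pentamers, the core of the AU-rich elements that mark cytokine mRNAs for fast decay, numbered 8 in the 318-base 3′ untranslated region of CSF2, 7 in the 854 bases of CSF3 and 4 in the 2154 bases of CSF1. The density of 25.2 pentamers per kilobase in CSF2 was reached by 0.1% of 19381 canonical 3′ untranslated regions, the 8.2 per kilobase of CSF3 by 2.34%, and the 1.86 per kilobase of CSF1 by 44.1%.

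The CSF2 promoter is printed because its gene went from almost no reads to 412 CPM in OIS. RefSeq gave a window for 1 of the 3 genes, CSF2, and its 250 bases before the start (GRCh38.p14, chr5:132073539-132073788, plus strand) read as follows, with the only motif match in capitals.
CSF2 promoter: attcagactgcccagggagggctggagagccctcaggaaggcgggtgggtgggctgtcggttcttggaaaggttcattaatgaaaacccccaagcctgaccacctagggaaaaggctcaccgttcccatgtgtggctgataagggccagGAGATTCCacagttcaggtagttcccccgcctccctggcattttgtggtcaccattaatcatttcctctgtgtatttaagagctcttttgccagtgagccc
On both strands of the 300-base window, which also holds the bases after the start, the CK-1 core GAGATTCC occurred 1 time, beginning 101 bases before the start. This motif was present in 0.869% of 35116 promoter windows. The TATA box TATAAA (11.5% of windows), the AP-1 motif TGANTCA (7.71%), the NF-kB motifs GGGNNTTCC (6.58%) and GGGNNTNCC (20.5%, which includes matches of the stricter form) and the C/EBP motif TTGCNNAA (10.5%) had no match, which says only that these letters are not in the window.

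In DMSO-treated cells, taken on day 10 like all others, CSF1 was expressed and CSF2 and CSF3 were close to silent. CSF1 had 1265 to 2144 counts in every DMSO library of both lines. With the control shRNA its level was 80.7 ± 16.9 CPM (SD, n = 3) in ER:RAS cells and 87.6 ± 17.7 CPM (n = 4) in IMR90 cells, a difference of 0.11 on the log2 scale (SE 0.22, adjusted p = 0.814, edgeR quasi-likelihood test, 0.346% of genes called between the lines). CSF2 had 0 to 4 counts in the DMSO libraries and CSF3 0 to 2. A count of 3, taken here as the floor, corresponded to 0.121 to 0.232 CPM, and no fold is given between groups at or under it. Such floors cover counting error only. All 8 IMR90 DMSO libraries with a COPB2 shRNA had 0 counts of CSF3.

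**Figure D1:**
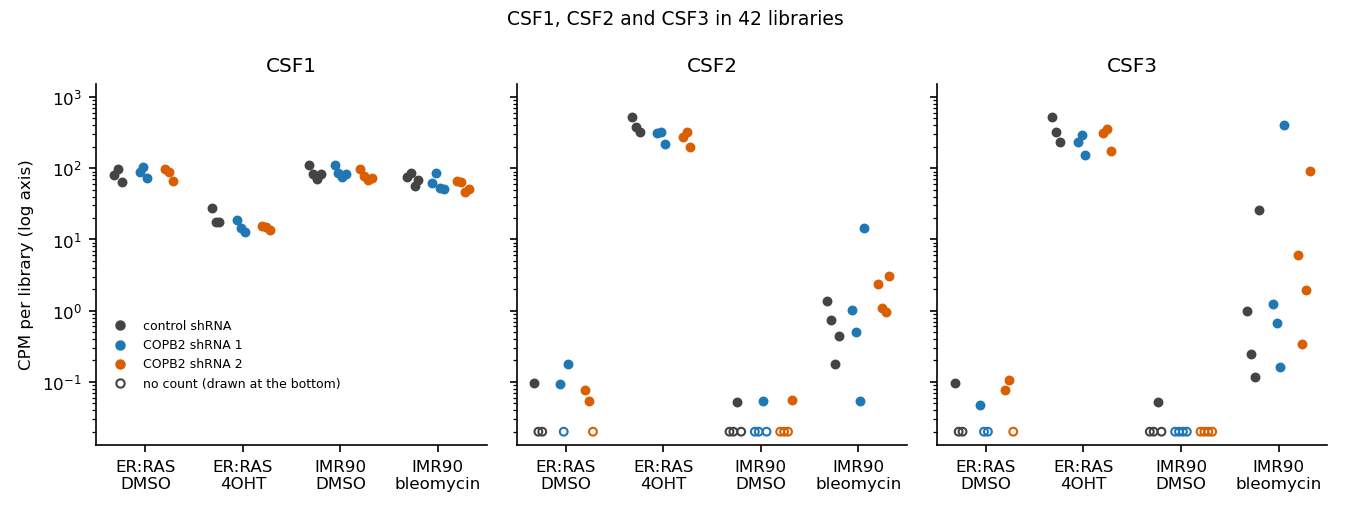
CPM of CSF1, CSF2 and CSF3 in each library on a log axis, by cell line, treatment and shRNA; open circles at the bottom are libraries with no count. CSF1 was between 63.6 and 113 CPM with DMSO, CSF2 and CSF3 stayed at or under 0.176 CPM there, and both rose above 150 CPM in every 4OHT library.

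In OIS, CSF2 and CSF3 were strongly induced and CSF1 fell. CSF2 had 6938, 6732 and 5505 counts in the 4OHT libraries with the control shRNA against 2, 0 and 0 with DMSO, which is 412 ± 105 CPM (n = 3) and at least 2711-fold over the floor of 3 counts per library. CSF3 had 6956, 5562 and 4028 counts against 2, 0 and 0, or 361 ± 151 CPM and at least 2377-fold. The groups did not overlap for either gene. Both were called (adjusted p = 1.99e-09 for CSF2 and 6.51e-09 for CSF3), where 35.7% of the genes tested were called.

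CSF1 moved the other way. It had 360, 305 and 304 counts in the 4OHT libraries with the control shRNA against 1682, 1727 and 1347 with DMSO. The highest 4OHT library reached 27.4 CPM and the lowest DMSO library 63.6 CPM, so the groups did not overlap. The fall was 3.87-fold, by 1.95 on the log2 scale (SE 0.25, adjusted p = 1.77e-05), and all 3 members were thus called in OIS. Of the endothelial markers 3 of 3 tested also rose in OIS, with a median log2 change of 5.01, where 35.7% of all genes were called. Markers with so few reads with DMSO passed the filter on low counts through the 4OHT libraries. This count was therefore partly set by the filter and is not comparable with that share. The sum over 4 endothelial genes was 7.38 to 11.4 CPM with 4OHT and 1.14 to 3.88 CPM with DMSO. Of 8 fibroblast markers 6 fell, among them DCN by 7.32 on the log2 scale (SE 0.29), VIM rose by 1.10 (SE 0.22) and THY1 was not called. The part of these markers in the colony-stimulating factor levels was not tested.

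**Figure D2:**
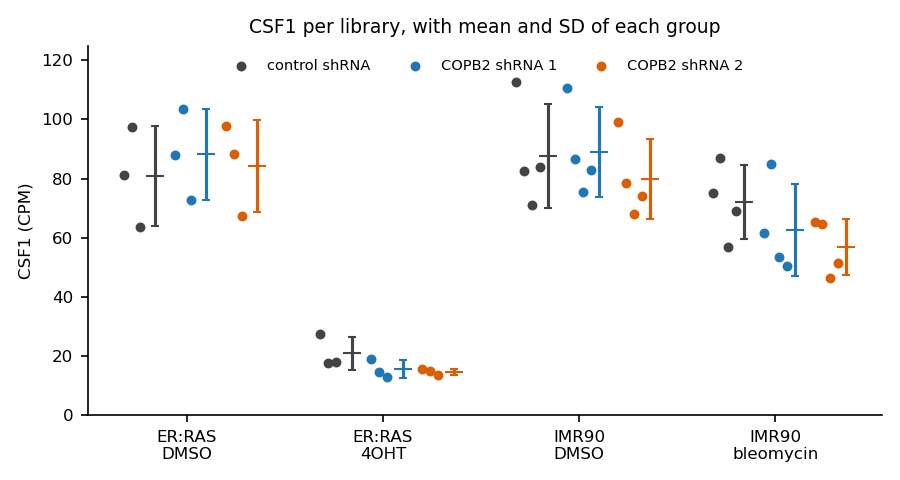
CSF1 in CPM on a linear axis; points are libraries and the bars beside them the mean and SD of each group. The 9 libraries with 4OHT sat between 12.9 and 27.4 CPM, below all others, and the bleomycin groups overlapped their DMSO groups with the control shRNA and shRNA 1 but not with shRNA 2, where the highest bleomycin library was at 65.3 CPM and the lowest DMSO library at 67.9 CPM.

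The same directions were measured in cells with a COPB2 shRNA. With shRNA 1, CSF2 had 5185, 5925 and 3948 counts with 4OHT against 2, 0 and 4 with DMSO, and its fitted change was 11.4 on the log2 scale (SE 0.62, adjusted p = 3.08e-09). With shRNA 2 it had 4206, 6033 and 3933 counts against 1, 1 and 0, at least 1499-fold over the floor. CSF3 rose at least 1546-fold with shRNA 1 and at least 1593-fold with shRNA 2. CSF1 fell by 2.51 (SE 0.25) and by 2.53 (SE 0.25) on the log2 scale, which is 5.71-fold and 5.76-fold lower. All 3 members were called in each of these comparisons, beside 36.9% of all genes in both.

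Per kilobase of exon, the makeup of the colony-stimulating factor mRNA changed in OIS from nearly all CSF1 to nearly all CSF2 and CSF3. In ER:RAS cells with DMSO and the control shRNA, CSF1 made 98.9% to 100% of the summed level of the 3 genes. With 4OHT its part was 0.524% to 0.655%, that of CSF2 73.3% to 78.9% and that of CSF3 20.5% to 26.1%. The levels there were 522 ± 133 CPM per kilobase for CSF2, 163 ± 68.0 for CSF3 and 3.98 ± 1.07 for CSF1. With the length of the canonical transcript in place of all annotated exons, a choice added after the data were seen, the means were 522, 240.0 and 5.23, in the same order.

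With bleomycin and the control shRNA, CSF2 was called higher at low counts, and CSF3 was not called, with most of its reads in 1 library. CSF2 had 26, 12, 3 and 8 counts in replicates 1 to 4 with the control shRNA, against a single count in the 4 DMSO libraries. Its mean of 0.683 ± 0.515 CPM (n = 4) was 4.03-fold over the floor and its median 3.47-fold, with replicate 3 itself at the floor. CSF2 was called (adjusted p = 0.0336), where 31.2% of genes were. The call was lost without bleomycin replicate 1 (adjusted p = 0.1) and without any 1 of the 4 DMSO libraries (adjusted p between 0.0587 and 0.0785). It was also lost without the filter on low counts, which CSF2 passed only through bleomycin-treated groups. CSF3 had 19, 4, 2 and 466 counts against 1 count in all DMSO libraries together and was not called (adjusted p = 0.106), although it was in the fit of all 42 libraries (adjusted p = 0.028). Its mean was 6.76 ± 12.6 CPM (n = 4), 39.9-fold over the floor, while its median was 3.69-fold over it. Without replicate 4 the mean was 0.457 ± 0.479 CPM (n = 3), 2.69-fold over the floor, and the median 1.45-fold. Replicate 3, with 2 counts, was itself under the floor.

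CSF1 was not called with bleomycin and the control shRNA. Its libraries held 1419, 1415, 958 and 1253 counts against 1756, 1622, 1353 and 1436 with DMSO, or 72.0 ± 12.5 CPM against 87.6 ± 17.7 CPM (n = 4 each). The log2 change was -0.28 (SE 0.19, adjusted p = 0.287), with a 95% interval from -0.65 to 0.09, and the groups overlapped.

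In bleomycin-treated cells with a COPB2 shRNA all 3 members were called against their DMSO groups, CSF1 near the threshold. With shRNA 1, CSF2 had 17, 9, 1 and 281 counts (adjusted p = 0.000331) and CSF3 had 20, 12, 3 and 7937 (adjusted p = 0.0121), with 35.2% of genes called. With shRNA 2, CSF2 had 44, 16, 17 and 59 counts (adjusted p = 0.00243) and CSF3 had 113, 5, 34 and 1743 (adjusted p = 0.0299), with 40% of genes called. Without replicate 4 of the bleomycin group alone, CSF3 was not called with shRNA 1 (adjusted p = 0.242) or shRNA 2 (adjusted p = 0.135), and without replicate 4 of every IMR90 group it was called with both (adjusted p = 0.0323 and 0.00327). CSF2 was called in each of these fits, with adjusted p between 0.00133 and 0.0224. CSF1 fell by 0.51 (SE 0.19, adjusted p = 0.0419) with shRNA 1 and by 0.49 (SE 0.19, adjusted p = 0.045) with shRNA 2. Both of these calls were lost without bleomycin replicate 4 (adjusted p = 0.14 and 0.129) and in most other alternatives. The IMR90 bleomycin libraries held 2.09 to 3.88 CPM over the 8 blood cell markers against 0.277 to 1.37 CPM with DMSO, with PTPRC called higher with the control shRNA. PTPRC passed the filter on low counts only through the bleomycin groups. With the control shRNA 31.2% of all genes were called. There, 6 of 8 fibroblast markers also fell, among them DCN by 2.05 (SE 0.42) and COL3A1 by 2.32 (SE 0.41), and VIM and THY1 were not called. Of 3 endothelial markers tested PECAM1 and KDR rose and VWF fell, and of 2 epithelial markers CDH1 rose and EPCAM was not called, with sums of at most 4.28 and 2.06 CPM in the bleomycin libraries. The part of these markers in the results was not tested.

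Replicate 4 of the bleomycin-treated cells carried most CSF3 reads of this model. The ratio of CSF3 to CSF2 counts there was 58.3 for the control shRNA, 28.3 for shRNA 1 and 29.5 for shRNA 2. In replicates 1 to 3 it lay between 0.313 and 3, and in the OIS libraries between 0.705 and 1.15. CSF2 in replicate 4 was high with shRNA 1 (14.3 CPM) and shRNA 2 (3.07 CPM) but with the control shRNA lay between replicates 2 and 3 (0.441 CPM). IL1B, an inflammatory cytokine known to induce CSF2 and CSF3, stood at 94.7, 641 and 216 CPM in these 3 libraries and between 9.23 and 45.5 CPM in replicates 1 to 3. IL1A stood at 10.0, 79.1 and 31.8 CPM against 0.341 to 8.16 CPM. The part of interleukin-1 in the CSF3 level was not tested, and the labels give no batch or date for these libraries.

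**Figure D3:**
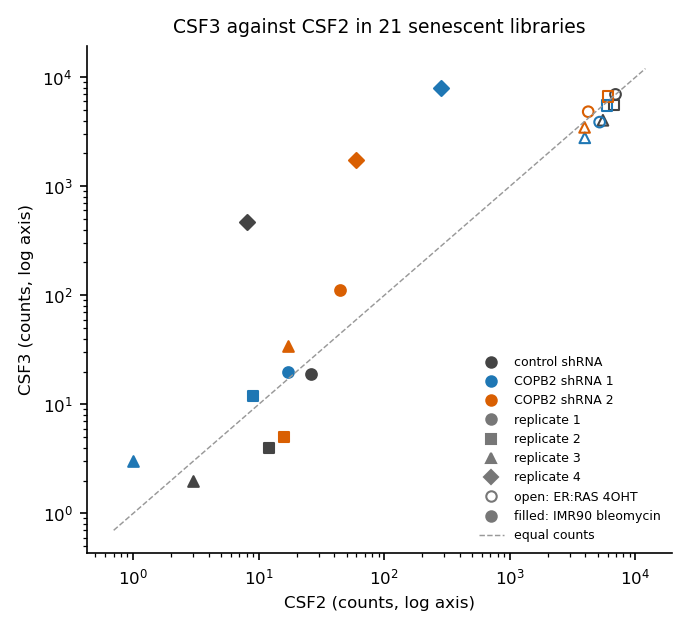
Counts of CSF3 against CSF2 on log axes in each 4OHT or bleomycin library, with marker shape for the replicate number and the dashed line at equal counts. OIS libraries cluster near equality, at 2782 to 6956 CSF3 counts, and the 3 bleomycin libraries of replicate 4 lie 28.3 to 58.3 times above equality.

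The models differed for all 3 genes when their senescent cells were compared directly, a contrast added after the data were seen. OIS cells exceeded bleomycin-treated cells by 9.51 on the log2 scale for CSF2 (SE 0.92, adjusted p = 4.21e-10) and by 6.03 for CSF3 (SE 1.77, adjusted p = 0.00619), and CSF1 was lower by a log2 change of -1.49 (SE 0.24, adjusted p = 4.04e-06). Of all genes 48.2% were called in this contrast. Without bleomycin replicate 4 of the control shRNA the difference for CSF3 was 9.88. For CSF1, which was expressed in all groups, the difference between both responses could also be tested: the response to 4OHT was lower than that to bleomycin by a log2 change of -1.60 (SE 0.32, adjusted p = 0.000359), where 20.3% of genes were called. For CSF2 (adjusted p = 0.355) and CSF3 (adjusted p = 0.846) this contrast was not called, with standard errors of 5.80 and 11.5 because their DMSO groups held almost no reads.

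None of the 3 genes was called with COPB2 depletion in any cell state. In OIS cells CSF2 was at 282 ± 57.6 CPM with shRNA 1 and 265 ± 60.8 CPM with shRNA 2, against 412 ± 105 CPM with the control shRNA (n = 3 each). Ratios of each shRNA library to the control library of the same replicate number ran from 0.518 to 0.832. The numbers did not pair these libraries, with same-number correlations down to -0.127 for shRNA 1 and -0.211 for shRNA 2. The log2 changes were -0.54 (SE 0.36, adjusted p = 1, 95% interval -1.25 to 0.17) and -0.64 (SE 0.36, adjusted p = 1, interval -1.35 to 0.07). The lowest control library (322 CPM) was just above the highest shRNA library (321 CPM), so the CSF2 groups did not overlap and the ratios within replicate numbers were bound to be low. With 3 libraries per group such a separation can arise without a change.

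CSF3 in OIS was at 227 ± 71.9 CPM with shRNA 1 and 281 ± 93.0 CPM with shRNA 2, against 361 ± 151 CPM. Its groups overlapped, with log2 changes of -0.67 (SE 0.41, interval -1.47 to 0.13) and -0.36 (SE 0.41, interval -1.16 to 0.44). CSF1 was at 15.4 ± 3.07 and 14.6 ± 1.06 CPM against 20.9 ± 5.61 CPM. Its log2 changes were -0.43 (SE 0.24, interval -0.90 to 0.04) and -0.51 (SE 0.24, interval -0.98 to -0.04). The shRNA 2 libraries did not overlap the control libraries, which with 3 libraries per group can arise without a change. The unadjusted p for CSF1 with shRNA 2 was 0.0501 in the edgeR quasi-likelihood test. The intervals are drawn from the normal distribution and are narrower than this test would give. None of the 3 members was called by edgeR with shRNA 1 (0.14% of genes called), shRNA 2 (0.224%) or the mean of both (0.266%), nor by the Wald test of DESeq2. Before adjustment 1 member lay under 0.05, CSF1 with the mean of both shRNAs. The control library of replicate 1 held the highest CPM of all 3 genes, and its effective size after scaling was 13164016 for a total of 18124337 counts. Without it the change of CSF3 with shRNA 2 was 0.05, and that of CSF2 was -0.30 and -0.39.

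In bleomycin-treated cells the estimates for CSF2 and CSF3 were positive and rested on few reads or few libraries. That of CSF2 with shRNA 2 kept its sign in every alternative run, and the others did not. CSF2 was 2.53 higher on the log2 scale with shRNA 1 (SE 0.90, adjusted p = 1) and 1.45 higher with shRNA 2 (SE 0.91, adjusted p = 0.781). CSF3 was 3.90 higher (SE 2.03, adjusted p = 1) and 1.87 higher (SE 1.89, adjusted p = 0.898). Without replicate 4 of the respective shRNA group, CSF2 with shRNA 1 was at -0.41 and CSF3 at -3.32 and -1.24. Without replicate 4 of every IMR90 group, CSF2 was at -0.56 and 0.94 and CSF3 at 0.52 and 2.57 with shRNA 1 and shRNA 2. Within replicate numbers, CSF3 with shRNA 2 was above the control library in 4 of 4 replicates, by ratios of 1.39 to 16.3, and CSF2 also in 4 of 4, by 1.48 to 6.95. With shRNA 1, among replicates with more than 3 counts in either library, CSF3 was above it in 3 of 3, by 1.22 to 15.7, and CSF2 in 1 of 3.

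CSF1 with bleomycin was at 62.5 ± 15.6 CPM with shRNA 1 and 57.0 ± 9.49 CPM with shRNA 2, against 72.0 ± 12.5 CPM (n = 4 each), and its log2 changes were -0.20 (SE 0.19) and -0.34 (SE 0.19). It was below the same-numbered control in 4 of 4 replicates with both shRNAs. No member was called by edgeR with shRNA 1 (0.00676% of genes called), shRNA 2 (0.0744%) or the mean of both (0.0474%), nor by DESeq2. Before adjustment CSF2 lay under 0.05 with shRNA 1 and with the mean of both. Same-numbered bleomycin libraries deviated together, and with the replicate number as a block the genes called over the whole table rose from 1 to 3 with shRNA 1, from 11 to 28 with shRNA 2 and from 7 to 14 for the mean. No colony-stimulating factor was among them, and the blocked log2 changes were 1.53 and 1.38 for CSF2 and 2.62 and 2.63 for CSF3.

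**Figure D4:**
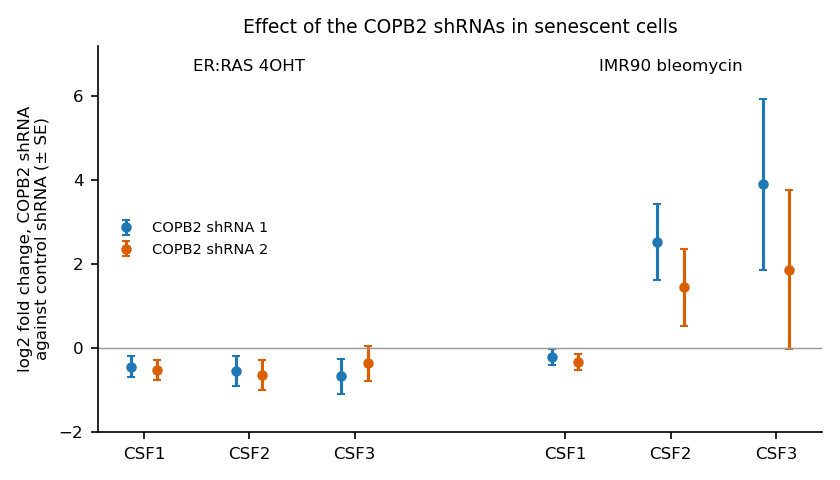
Log2 fold change by both COPB2 shRNAs, relative to control shRNA, in senescent cells, with its standard error. In OIS all 6 estimates were below 0, from -0.67 to -0.36, and in bleomycin-treated cells those of CSF2 and CSF3 were above 0 with wide errors.

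With DMSO, CSF1 was the only member with reads enough to compare. In ER:RAS cells its log2 changes were 0.13 (SE 0.24) for shRNA 1 and 0.06 (SE 0.24) for shRNA 2. Those in IMR90 cells were 0.02 (SE 0.19) and -0.13 (SE 0.19). No member was called with either shRNA or their mean in ER:RAS cells (0.00699% of genes called with each shRNA, 0.014% for the mean) or IMR90 cells (0.00676% in each), and none had an unadjusted p under 0.05. With the replicate block 2 genes were called in IMR90 cells with shRNA 2 and for the mean in place of 1, and CSF1 was not among them. The effect of the shRNA in senescent cells minus that in DMSO-treated cells was tested as well. In ER:RAS cells this difference for CSF1 was -0.56 (SE 0.34) with shRNA 1 and -0.57 (SE 0.34) with shRNA 2. In IMR90 cells it was -0.22 (SE 0.27) with shRNA 1 and -0.21 (SE 0.27) with shRNA 2. For no member was it called, with 0% of all genes called by edgeR in any of the 4 contrasts. Before adjustment, 194 and 263 genes of ER:RAS cells and 121 and 285 genes of IMR90 cells lay under 0.05, and DESeq2 called 8, 10, 0 and 0.

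The receptors were close to absent in these cells. CSF1R, the receptor of CSF1, was tested in ER:RAS cells and rose with 4OHT from 0.0698 ± 0.061 to 1.13 ± 0.448 CPM (adjusted p = 0.000792). It passed the filter on low counts there only through the 4OHT groups. In IMR90 cells CSF1R was too low to be tested, at 0.0259 ± 0.0299 CPM with DMSO and 0.210 ± 0.131 CPM with bleomycin (control shRNA). CSF2RA stayed at or under 0.671 CPM in every library and CSF2RB at or under 0.341 CPM. CSF3R was at 0.411 ± 0.209 CPM in IMR90 cells with DMSO and 0.303 ± 0.219 CPM with bleomycin (adjusted p = 0.632) with the control shRNA. With shRNA 1 it fell with bleomycin from 0.933 ± 0.126 to 0.283 ± 0.137 CPM (adjusted p = 0.0155), and with shRNA 2 it was not called (adjusted p = 0.311). In bulk RNA, fewer cells of a type and less RNA per cell cannot be told apart.

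Of 7 other haematopoietic growth factors listed, 3 were tested in each model. In each, 2 were called lower and none higher, where 35.7% of all genes were called in OIS and 31.2% with bleomycin. A count over 3 genes does not set this group apart from all genes. IL34, the other ligand of CSF1R, fell with CSF1 in OIS, by 5.45 on the log2 scale (SE 0.59, adjusted p = 3.93e-06), and also with bleomycin, by 2.64 (SE 0.50, adjusted p = 0.000344). FLT3LG, a growth factor of early progenitors and dendritic cells, fell by 1.79 (SE 0.39) and 0.95 (SE 0.25), both called. KITLG, the ligand of KIT, had log2 changes of 1.39 (SE 0.92) and 0.36 (SE 0.42) and was not called. IL3 and IL5, which share the receptor subunit CSF2RB with CSF2, EPO and THPO had too few reads to be tested. The median log2 change of the tested ligands was -1.79 in OIS and -0.96 with bleomycin, against -0.079 and -0.014 over all genes.

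Of 6 genes that transmit or restrain colony-stimulating factor signals, 3 were called in OIS, all lower (STAT5A, STAT3 and the feedback inhibitor CISH), where 35.7% of all genes were called. With bleomycin 5 of 6 were called, all lower, where 31.2% of all genes were. STAT5A, a main transducer of CSF2 signals, fell by 1.30 (SE 0.36) in OIS and by 1.21 (SE 0.31) with bleomycin. SOCS3, which restrains CSF3 signals, had a log2 change of 0.09 (SE 0.25) in OIS and fell by 1.65 (SE 0.30) with bleomycin.

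More of the listed factors known to act on CSF2 and CSF3 transcription were called in OIS than with bleomycin. Of 18 transcription factors 10 were called higher and 3 lower in OIS, with a median log2 change of 0.98, where 35.7% of all genes were called. With bleomycin 3 were called higher and 2 lower, with a median of -0.23, a share of calls near the 31.2% of all genes. Among the NF-kB subunits, RELB rose by 1.46 (SE 0.24) and NFKB2 by 1.13 (SE 0.29) in OIS, against 0.24 (SE 0.31) and 0.41 (SE 0.28) with bleomycin. JUNB rose by 1.48 (SE 0.26) in OIS against -0.22 (SE 0.25), and CEBPB by 1.19 (SE 0.26) against 0.11 (SE 0.29). The AP-1 member FOSL1 rose in both, by 1.78 (SE 0.18) and 2.09 (SE 0.31). Other factors of the list went down in OIS with the control shRNA. CEBPD went from a mean of 218.5 to 89.9 CPM, FOSL2 from 107.5 to 47.8 CPM and NFATC1 from 13.8 to 7.63 CPM. The part of these factors in the CSF2 and CSF3 levels was not tested. The difference between both models was itself called for RELB, FOS, JUN, JUNB and ETS1, higher in OIS, and for FOSL2, lower, which is 6 of 18 where 20.3% of all genes were called, but not for CEBPB (adjusted p = 0.0507).

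**Figure D5:**
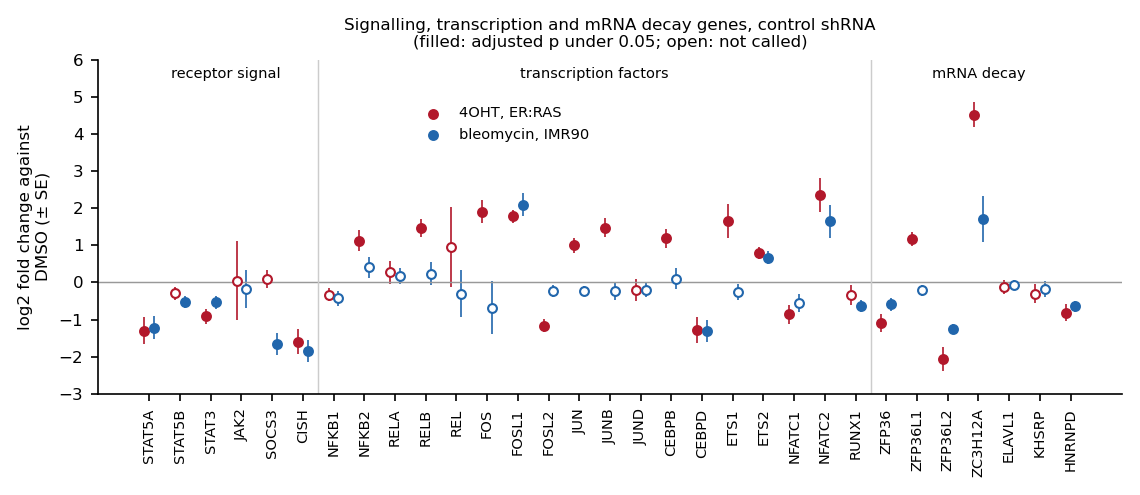
Log2 fold change against DMSO, with standard error, of genes of receptor signalling, transcription and mRNA decay in both models with the control shRNA; filled points passed an adjusted p of 0.05. ZC3H12A at 4.53 in OIS lies highest, and ZFP36L2 at -2.06 lowest.

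Regulators of mRNA decay changed in both directions. ZC3H12A, the endonuclease regnase-1, rose by 4.53 (SE 0.33) in OIS and by 1.72 (SE 0.62) with bleomycin. ZFP36L2 and ZFP36, which bind AU-rich elements and promote decay, fell in OIS by 2.06 (SE 0.31) and 1.09 (SE 0.23), and with bleomycin by 1.26 (SE 0.14) and 0.59 (SE 0.18). ZFP36L1 of the same family rose by 1.17 (SE 0.19) in OIS and had a log2 change of -0.21 (SE 0.15) with bleomycin. HNRNPD went from 142.8 to 81.4 CPM in OIS and from 155.9 to 99.6 CPM with bleomycin (control shRNA). ELAVL1 and KHSRP were not called in either model. Of the 7 decay genes listed, 2 were called higher and 3 lower in OIS, where 35.7% of all genes were called. With bleomycin 1 was called higher and 3 lower, where 31.2% of all genes were. Of the upstream cytokines, IL1B reached 7181 ± 1262 CPM (n = 3) in OIS and 35 ± 40.4 CPM (n = 4) with bleomycin, from 0.835 ± 0.0943 and 0.782 ± 0.121 CPM with DMSO, and IL1A 233 ± 122 and 4.83 ± 3.88 CPM. TNF had at most 3 counts in any library and IL17A at most 1. No gene of these lists was called with a COPB2 shRNA in OIS or bleomycin-treated cells.

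Over the 12 group means of log2 CPM, CSF2 and CSF3 ran together (Pearson correlation 0.99) and opposite to CSF1 (-0.979 and -0.97). The Spearman correlation of CSF2 with CSF3 was 0.951, and those with CSF1 were weaker than by Pearson, at -0.734 and -0.762. Among 4662 genes with a span of at least 2 log2 units, those most like CSF3 were CXCL5, IL1B, PIK3R5, IER3 and AREG, with correlations from 0.996 to 0.999. Those most like CSF2 were HEY1, CST2, MIR3142HG, SAA1 and CSRNP1 (0.997 to 0.999), and those most like CSF1 were ERBB2, SSH3, CDH24, SYNGR1 and BCAM (0.995 to 0.996). The 12 means fall into few levels set by treatment, and the correlations are descriptions with no test. By Spearman correlation only ERBB2 recurred among the 5 genes most like a member.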

How the data were processed

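RNA of 42 libraries of IMR90 ER:RAS and IMR90 fibroblasts was sequenced by the authors, who deposited 1 table of raw read counts per gene symbol. The submitters' notes name STAR 2.7.8a, DRAGEN and DESeq2 1.32.0, while the methods of the study describe an older aligner and counter. Which of them made the table is not given in the sources used here, and neither is whether counting used strand. Groups came from the labels. The study's supplement states fewer replicates for its bleomycin comparisons than the 4 libraries per group in the table, and all were used here. Each table column was matched to a sample by name. The members and gene lists were chosen with earlier results of these data known.

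Counts were tested with the quasi-likelihood test of edgeR 4.0.16 (R 4.3.3) after its expression filter and TMM scaling, in 1 fit per cell line (14297 genes in 18 ER:RAS libraries, 14783 in 24 IMR90 libraries) or, for contrasts between lines, over all 42 libraries (15299 genes). CSF2 and CSF3 passed the filter only through groups given 4OHT or bleomycin. The p-values were adjusted by Benjamini-Hochberg over all genes tested and called under 0.05. CPM are counts per 1000000 of the TMM-scaled total. Whether groups overlapped is given as a description, and the share of all genes without overlap was not measured. Fold changes against groups in which no library exceeded the floor of 3 counts are those of the mean over the floor. They are read as lower bounds only where every library of the higher group was above the floor. For gene likeness, log2 CPM used a prior count of 2.

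Named are the members, COPB2, fixed lists of receptors, other ligands, signal genes, transcription factors, mRNA decay factors, upstream cytokines and cell markers, the 5 genes most like each member and the nearest protein-coding genes. Of the symbols, 25055 matched GENCODE (GRCh37) and 26986 RefSeq. Same-numbered libraries deviated together in every pair in 5 of 14 contrasts checked, with correlations of 0.178 to 0.798, and the labels do not say what a number shares. Alternatives were DESeq2 1.42.0 (size factors and Wald test), no expression filter, other sets of libraries in the fit, the replicate number as a block and leaving out libraries. The scripts were tested on simulated data.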

Additional observations from a re-analysis of the deposited data

Results flagged for a closer look

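In the bleomycin-treated cells, replicate 4 stood apart from the other 3 libraries for CSF3 with the control shRNA (466 counts against 2 to 19, gap over range 0.965), with COPB2 shRNA 1 (7937 against 3 to 20, 0.997) and with COPB2 shRNA 2 (1743 against 5 to 113, 0.936). For CSF2 it stood apart with COPB2 shRNA 1 (281 counts against 1 to 17, 0.931). These ratios exceeded Dixon's critical value of 0.829 for 4 samples in 4 of 12 groups tested. The ratios were taken on CPM and not on a log scale, where the gaps are smaller relative to the range. CSF2 and CSF3 come from the same libraries, so the groups are not independent. The flags are therefore descriptions, and no chance rate is given.

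For CSF1 the response to 4OHT in ER:RAS cells and to bleomycin in IMR90 cells differed by -1.60 on the log2 scale (adjusted p = 0.000359, edgeR quasi-likelihood test).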

How the results depend on the processing

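Over all alternatives, 684 values kept their direction and their side of the threshold, 38 crossed the threshold and 16 changed sign. The changes of the 3 genes from DMSO to 4OHT, their differences between OIS and bleomycin-treated cells and the difference of responses for CSF1 kept both in every alternative run. With bleomycin, the CSF1 change was no longer called with shRNA 1 under DESeq2 size factors (-0.48), the DESeq2 Wald test (-0.48), a fit of all libraries (-0.47), a fit of only the libraries compared (-0.48) and without replicate 4 of every group (-0.42), nor with shRNA 2 under the same settings (-0.43, -0.44, -0.45, -0.47 and -0.43). Leaving out 1 library gave -0.70 to -0.40 and -0.55 to -0.36. For CSF2 with bleomycin and the control shRNA, the adjusted p was 0.061 without the filter and 0.0293 to 0.1 leaving out 1 library. For CSF3 it was 0.028 in the fit of all libraries. With shRNA 1 it was 0.00857 to 0.242 leaving out 1 library, and with shRNA 2 it was 0.0831 without the filter and 0.0273 to 0.135 leaving out 1 library, the call being lost without bleomycin replicate 4 or any DMSO library. The causes were not tested.

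For COPB2 shRNA against control shRNA, leaving out 1 library gave CSF1 log2 changes of -0.02 to 0.31, -0.08 to 0.25 and -0.05 to 0.28 (ER:RAS with DMSO, shRNA 1, shRNA 2 and mean) and -0.08 to 0.16, -0.23 to 0.01 and -0.13 to 0.08 (IMR90 with DMSO), and -0.09 to 0.28 between the lines. In OIS it gave CSF3 changes of -0.60 to 0.05 with shRNA 2. With bleomycin it gave CSF2 changes of -0.41 to 3.10 with shRNA 1, and CSF3 changes of -3.32 to 7.70, -1.24 to 5.68 and -0.73 to 6.69. Without replicate 4 of every group CSF2 with shRNA 1 was at -0.56. None of these was called.

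Genes called over the whole table in OIS with COPB2 shRNA 1, shRNA 2 and their mean numbered 20, 32 and 38, against 50, 74 and 94 with the DESeq2 Wald test, 54, 89 and 103 in the fit of all libraries, and 0, 0 and 11 with only the libraries compared. With bleomycin, 11 became 35 and 7 became 15 with the Wald test, 1 each with only the libraries compared, and 11 became 6 with no filter. With DMSO the counts of 1 or 2 became 0 to 4. The interactions in ER:RAS cells had 0 calls, against 6 and 12 in the fit of all libraries. Between the lines 53 became 173 with the Wald test and 2 with only the libraries compared. With only the libraries compared, 5098 calls in OIS became 2911, 5915 with bleomycin and shRNA 2 became 3734, and 7376 between the senescent cells became 4672.

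With the replicate block, in contrasts whose numbers did not pair every library (same-number correlations down to -0.614), CSF3 with bleomycin and the control shRNA was called (adjusted p = 0.0022), the 20, 32 and 38 calls in OIS became 44, 76 and 105, the interactions in ER:RAS cells went from 0 to 4 each, and the 53 calls between the lines became 202. The block changed no other call of the 3 genes. Depth limits CSF2 and CSF3 with DMSO, where most libraries held 0 or 1 count.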

Other observations

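The nearest protein-coding genes on either side of the members were also measured. Next to CSF2, all 3 tested neighbours rose in OIS with the control shRNA: P4HA2, a collagen prolyl hydroxylase, by 2.35 on the log2 scale (SE 0.28), PDLIM4 by 2.7 (SE 0.40) and the cation transporter SLC22A4 by 2.54 (SE 0.33), at 114 to 218.2 kb after the gene. With bleomycin SLC22A4 rose by 2.32 (SE 0.29), while P4HA2 (0.15, SE 0.21) and PDLIM4 (0.50, SE 0.28) were not called. IL3, 10.6 kb before CSF2, had too few reads to be tested.

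Next to CSF3, MED24, a Mediator subunit 1.3 kb after the gene, had a log2 change of 0.07 (SE 0.27) in OIS. PSMD3, a proteasome subunit, rose by 0.91 (SE 0.28), NR1D1, a nuclear receptor of the circadian clock, rose by 1.05 (SE 0.34), and THRA, a thyroid hormone receptor, fell by 1.72 (SE 0.27) in OIS and by 1.13 (SE 0.19) with bleomycin. Next to CSF1, GSTM5, a glutathione transferase whose family members can share reads, fell by 4.09 (SE 0.69) in OIS and by 1.76 (SE 0.32) with bleomycin, and AHCYL1 rose by 0.73 (SE 0.20) in OIS. In these contrasts 35.7% and 31.2% of all genes were called.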
